A study of Mus musculus with 14 samples.

Results

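Pattern receptors of myeloid cells, leukocyte surface proteins and products of the acute inflammatory response were followed across 14 arrays of newborn mouse eyes. The 10 genes were Cd14, Tlr2, Clec4d, Trem1, Fpr2, Itgb2, Cd52, Saa3, Acod1 and Slfn4. Each was measured by 1 probe set annotated to it alone, so that they made up 10 of the 20380 probe sets with a single gene and 10 of the 12393 genes. They were picked by name with the comparison of Brg1 knockout and wildtype eyes in view, and their values in that comparison are therefore given as a description, without a test. The comparison in Snf2h knockout eyes was tested.

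Brg1 cKO eyes (conditional knockout, 3 arrays) were set against Brg1 wildtype eyes (3 arrays), both at postnatal day 1 and on a mixed background. Snf2h cKO eyes (lens-conditional knockout, 4 arrays) were set against Snf2h wildtype eyes (4 arrays), all from newborn C57BL/6 pups. Brg1 and Snf2h, encoded by Smarca4 and Smarca5, are ATPases of the SWI/SNF and ISWI chromatin remodelling complexes. Whole eyeballs were used, and 50 ng of total RNA was amplified and labelled with biotin for hybridisation. The cells in which Brg1 was deleted, the Cre driver of either knockout and whether each array held 1 animal are not given in the sources used here, so p-values measure only the spread between these samples.

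Cells of the innate immune system carry receptors that recognise bacterial lipids, peptides and glycans. Signals from the Toll-like receptors among them reach the nucleus largely through NF-kB. Activated macrophages and neutrophils then make cytokines, itaconate and acute-phase proteins, and interferons induce a further set of genes that includes the Schlafen family. Resident macrophages and microglia are the usual immune cells of a healthy developing eye, and neutrophils enter it in inflammation.

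Promoters of the genes are shown first, as a description. The genes were chosen with the Brg1 comparison in view, and a shared control of them was not tested. The 250 bases before the start in the RefSeq table (GRCm38.p6) were found for 7 of the 10 genes, Tlr2, Clec4d, Trem1, Fpr2, Saa3, Acod1 and Slfn4. The other 3, Cd14, Itgb2 and Cd52, were not used here. Both strands were searched for 6 motifs, those of NF-kB, C/EBP, AP-1, PU.1, STAT and TATA. The windows printed stand for a pattern receptor, a myeloid lectin, an acute-phase gene and a Schlafen gene, written 5′ to 3′ along the gene's strand with every match in capitals. The Tlr2 window is chr3:83841609-83841858 (minus strand), that of Clec4d is chr6:123261857-123262106 (plus strand), that of Saa3 is chr7:46715677-46715926 (minus strand) and that of Slfn4 is chr11:83174936-83175185 (plus strand).
Tlr2: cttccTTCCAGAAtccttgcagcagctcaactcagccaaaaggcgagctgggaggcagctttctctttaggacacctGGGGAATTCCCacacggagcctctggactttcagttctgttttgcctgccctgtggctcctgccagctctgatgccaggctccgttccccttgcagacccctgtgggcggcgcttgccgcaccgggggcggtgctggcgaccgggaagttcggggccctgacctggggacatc
Clec4d: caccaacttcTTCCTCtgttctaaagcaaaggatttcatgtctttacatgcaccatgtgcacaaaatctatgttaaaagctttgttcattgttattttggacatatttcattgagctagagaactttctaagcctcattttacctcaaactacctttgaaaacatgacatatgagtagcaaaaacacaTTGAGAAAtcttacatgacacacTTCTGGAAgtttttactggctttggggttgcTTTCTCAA
Saa3: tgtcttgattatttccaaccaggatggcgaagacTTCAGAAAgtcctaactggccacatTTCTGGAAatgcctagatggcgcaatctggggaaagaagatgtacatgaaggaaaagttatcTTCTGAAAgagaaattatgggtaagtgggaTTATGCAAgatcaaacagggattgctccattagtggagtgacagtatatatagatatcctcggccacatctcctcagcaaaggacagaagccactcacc
Slfn4: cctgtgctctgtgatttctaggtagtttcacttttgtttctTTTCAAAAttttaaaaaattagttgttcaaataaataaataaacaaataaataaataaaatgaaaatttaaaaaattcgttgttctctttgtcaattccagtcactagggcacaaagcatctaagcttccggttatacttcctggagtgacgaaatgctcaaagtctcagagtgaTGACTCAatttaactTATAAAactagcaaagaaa

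In the Tlr2 window the capitals mark a C/EBP match and overlapping matches to the NF-kB consensus, and in the Clec4d window a PU.1 match and 3 C/EBP matches. The Saa3 window held 4 C/EBP matches, and the Slfn4 window a C/EBP, an AP-1 and a TATA match. The C/EBP motif, searched as TTNNGNAA, occurred in 6 of the 7 windows, all but that of Acod1, against 36.8% of the 32851 promoter windows of the table. PU.1, searched as GAGGAA, occurred in 4 of 7 (23.3% of all), those of Clec4d, Trem1, Fpr2 and Acod1. The TATA motif, searched as TATAAA, was found in 3 of 7, those of Fpr2, Acod1 and Slfn4 (12.4% of all). The STAT motif, searched as TTCNNNGAA, was found in 2 of 7, those of Trem1 and Fpr2 (7.02% of all). The NF-kB consensus was found for Tlr2 alone (1 of 7, against 3.90% of all). The AP-1 motif, searched as TGANTCA, was found for Slfn4 alone (1 of 7, against 6.75%). These matches describe letters in the windows, and binding was not measured.

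All values below are log2 of the deposited RMA intensity, on which 1 unit is a doubling. Median intensity ran from 101 to 114 across the arrays, and the values carry no detection calls. All 10 probe sets had a mean log2 level over the 14 arrays below 6.87, the median of all probe sets, so that folds against the dim wildtype levels are approximate. Array signal over whole eyes does not tell more cells of a type from more RNA per cell. Arrays of 3 or 4 samples a group limit the precision of every value.

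In Brg1 cKO eyes every gene was higher on each of the 3 knockout arrays than on any Brg1 wildtype array, which held for 10 of 10 genes and for 7.23% of all probe sets. The log2 difference exceeded 2 for 9 of the 10, all but Tlr2, and for 0.554% of all probe sets. The median difference was 5.17 over the 10 genes and −0.01 over all probe sets, with ranks among the 20380 differences between 4 (Slfn4) and 205 (Tlr2). Since the genes were chosen on this contrast, these counts say only how they were picked. In Snf2h cKO eyes 0 of the 10 genes passed the test, beside 0.0% of all probe sets.

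**Figure D1:**
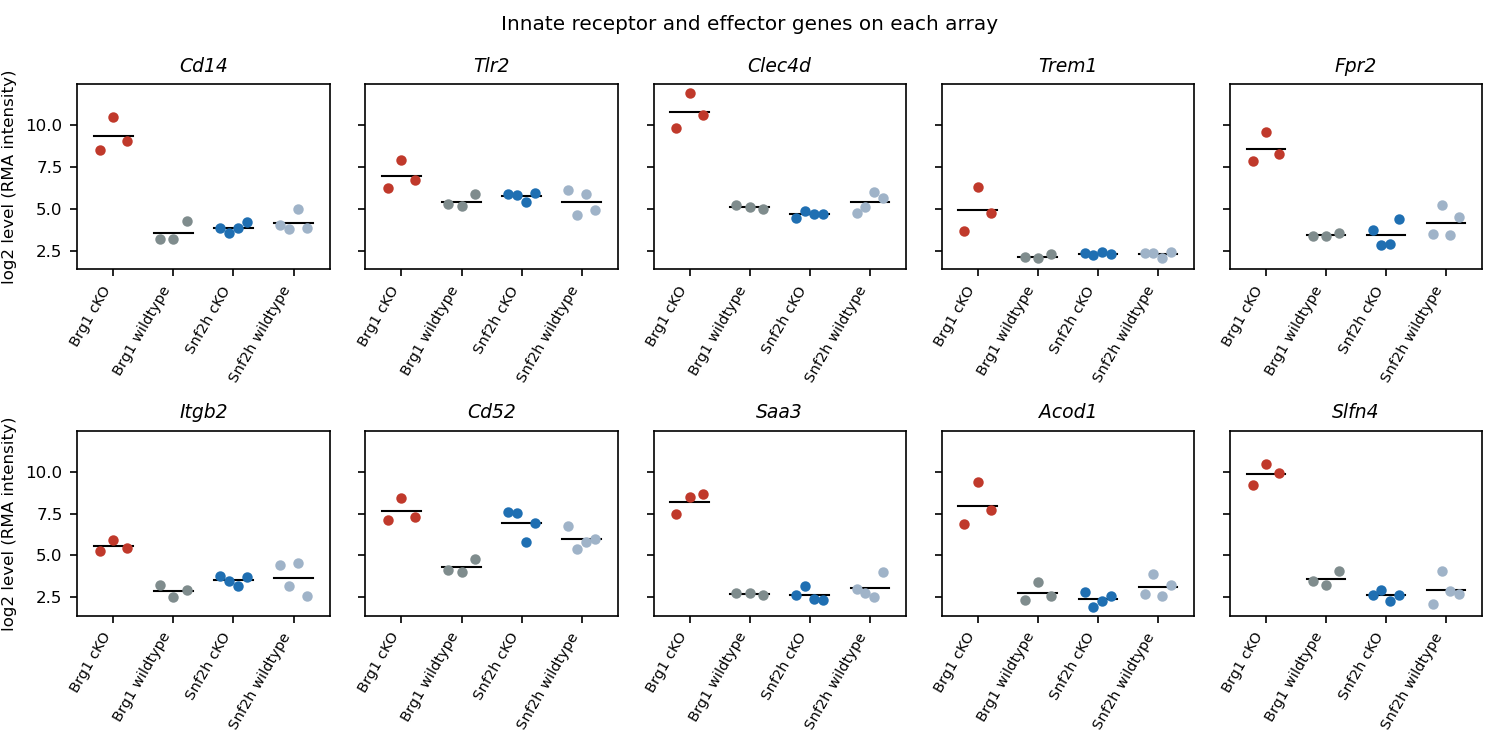
Log2 level (vertical axis) of each of the 10 genes on every array, with 1 panel per gene, 1 point per array and a black line at the group mean. The groups run from Brg1 cKO and Brg1 wildtype to Snf2h cKO and Snf2h wildtype, and in every panel the 3 Brg1 cKO points lie above the 3 Brg1 wildtype points, while the Snf2h groups overlap.

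Cd14 is the co-receptor that passes lipopolysaccharide to the Tlr4 complex. It had log2 levels of 8.53, 10.49 and 9.09 in Brg1 cKO eyes, against 3.20, 3.21 and 4.29 in Brg1 wildtype eyes. The lowest knockout array was 4.24 above the highest wildtype array. The log2 difference was 5.80 ± 0.52 (SE, n = 3 against 3), or 55.9-fold. In the Snf2h experiment the levels were 3.86, 3.55, 3.86 and 4.21 in cKO eyes and 4.04, 3.80, 5.0 and 3.84 in wildtype eyes. These groups overlapped, with a difference of −0.30 ± 0.27 (SE, n = 4 against 4, adjusted p = 0.58 by limma) and a 95% interval from −0.90 to 0.31.

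Tlr2, a Toll-like receptor for bacterial lipoproteins, moved least of the 10 in Brg1 cKO eyes. Its levels were 6.24, 7.93 and 6.74 in Brg1 cKO eyes, against 5.28, 5.15 and 5.90 in Brg1 wildtype eyes. The difference was 1.53 ± 0.43 (SE), or 2.88-fold, and cKO replicate 1 lay only 0.33 above the highest wildtype array. Snf2h cKO eyes had 5.91, 5.85, 5.41 and 5.94, against 6.15, 4.66, 5.88 and 4.96 in Snf2h wildtype eyes. All 4 cKO values fell within the wildtype range, and the difference was 0.36 ± 0.32 (SE, adjusted p = 0.566 by limma, 95% interval −0.35 to 1.08).

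Clec4d, a C-type lectin receptor of myeloid cells, reached 9.85, 11.94 and 10.62 in Brg1 cKO eyes, against 5.26, 5.11 and 4.97 in Brg1 wildtype eyes. The wildtype arrays were close together (SD 0.15) and the knockout arrays were not (SD 1.06). The difference was 5.69 ± 0.48 (SE), or 51.6-fold. Its probe set is of a kind that can match more than 1 transcript. Snf2h cKO eyes had 4.44, 4.87, 4.68 and 4.71, against 4.76, 5.14, 5.99 and 5.68 in Snf2h wildtype eyes. Only cKO replicate 2 exceeded the lowest wildtype array, and the difference of −0.72 ± 0.25 (SE, 95% interval −1.28 to −0.15) did not pass the test over all probe sets (adjusted p = 0.208 by limma).

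Trem1 is an activating receptor of neutrophils and monocytes that signals through the adaptor Tyrobp. Its levels were 3.66, 6.33 and 4.77 in Brg1 cKO eyes, against 2.13, 2.06 and 2.28 in Brg1 wildtype eyes. No other of the 10 genes spread as widely among the knockout arrays (SD 1.34), and the difference was 2.76 ± 0.59 (SE), or 6.79-fold. It was 3.39 without cKO replicate 1 and 2.06 without cKO replicate 2. The Snf2h arrays had 2.34, 2.23, 2.42 and 2.31 in cKO eyes and 2.37, 2.38, 2.10 and 2.41 in wildtype eyes. The groups overlapped closely, and the difference was 0.01 ± 0.13 (SE, adjusted p = 0.977 by limma, 95% interval −0.28 to 0.30).

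Fpr2, a chemotactic receptor for formylated peptides and for Saa proteins, had 7.84, 9.62 and 8.29 in Brg1 cKO eyes, against 3.39, 3.37 and 3.54 in Brg1 wildtype eyes. The 3 wildtype arrays differed by 0.17 at most, and the difference between the groups was 5.15 ± 0.42 (SE), or 35.4-fold. In Snf2h cKO eyes the levels were 3.77, 2.82, 2.89 and 4.38, against 3.49, 5.22, 3.47 and 4.51 in Snf2h wildtype eyes. Both groups spread over more than 1 unit and overlapped. The difference was −0.71 ± 0.46 (SE, adjusted p = 0.435 by limma, 95% interval −1.74 to 0.32).

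Among the leukocyte surface genes, Itgb2 encodes the common beta chain of the leukocyte integrins and is needed for firm adhesion and crossing of vessel walls. It had 5.29, 5.91 and 5.44 in Brg1 cKO eyes, against 3.26, 2.50 and 2.96 in Brg1 wildtype eyes. The knockout arrays spread no more than the wildtype arrays (SD 0.32 and 0.38), and the difference was 2.64 ± 0.26 (SE), or 6.23-fold. Snf2h cKO eyes had 3.77, 3.47, 3.18 and 3.70, against 4.45, 3.17, 4.54 and 2.56 in Snf2h wildtype eyes. The cKO values lay within the wildtype range, with a difference of −0.15 ± 0.41 (SE, adjusted p = 0.869 by limma, 95% interval −1.07 to 0.77) that turned to 0.02 with quantile normalisation of all arrays.

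Cd52, a small lipid-anchored glycoprotein of lymphocytes and myeloid cells, had 7.15, 8.45 and 7.29 in Brg1 cKO eyes, against 4.16, 4.04 and 4.80 in Brg1 wildtype eyes. The difference was 3.30 ± 0.38 (SE), or 9.82-fold. It was also the gene with the highest difference of the 10 in Snf2h eyes. There the levels were 7.57, 7.54, 5.78 and 6.96 in cKO eyes and 6.74, 5.41, 5.78 and 5.97 in wildtype eyes. The near-identical cKO replicates 1 and 2 and cKO replicate 4 lay above all wildtype arrays, while cKO replicate 3 lay within the wildtype range. The difference of 0.98 ± 0.41 (SE, 1.98-fold, 95% interval 0.06 to 1.91) did not pass the test (adjusted p = 0.257 by limma).

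The effector genes were low in every wildtype array. Saa3, a serum amyloid A made outside the liver in mouse inflammation, had 7.47, 8.52 and 8.69 in Brg1 cKO eyes, against 2.76, 2.78 and 2.62 in Brg1 wildtype eyes. The gap between the groups was 4.69 and the difference 5.51 ± 0.32 (SE), or 45.4-fold. Snf2h cKO eyes had 2.63, 3.16, 2.42 and 2.36, against 2.97, 2.74, 2.53 and 3.99 in Snf2h wildtype eyes. The groups overlapped, and the difference was −0.41 ± 0.31 (SE, adjusted p = 0.508 by limma, 95% interval −1.11 to 0.29).

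Acod1 encodes the mitochondrial enzyme that makes itaconate in activated macrophages. It had 6.87, 9.39 and 7.70 in Brg1 cKO eyes, against 2.36, 3.43 and 2.56 in Brg1 wildtype eyes. The difference was 5.20 ± 0.61 (SE), or 36.7-fold, the widest standard error of the 10 genes. Without cKO replicate 2 it was 4.49, and without cKO replicate 1 it was 5.76. In Snf2h cKO eyes the levels were 2.80, 1.91, 2.28 and 2.56, against 2.70, 3.91, 2.60 and 3.23 in Snf2h wildtype eyes. Replicate 1 of the cKO arrays exceeded wildtype replicates 1 and 3, so the groups overlapped. The difference was −0.72 ± 0.30 (SE, 95% interval −1.40 to −0.05) and did not pass the test (adjusted p = 0.256 by limma).

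Slfn4, a Schlafen gene of mouse myeloid cells that interferons and Toll-like receptor ligands induce, had 9.22, 10.48 and 9.93 in Brg1 cKO eyes, against 3.49, 3.25 and 4.07 in Brg1 wildtype eyes. Its gap of 5.16 was the widest of the 10, as was its difference of 6.28 ± 0.35 (SE), or 77.4-fold. Snf2h cKO eyes had 2.62, 2.96, 2.27 and 2.61, against 2.10, 4.08, 2.88 and 2.71 in Snf2h wildtype eyes. The cKO values lay within the wildtype range, and the difference was −0.33 ± 0.36 (SE, adjusted p = 0.655 by limma, 95% interval −1.14 to 0.48). Another probe set that matches both Slfn4 and Slfn3 was left out.

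Over the Snf2h experiment as a whole, the genes gave 0 calls of 10, and all 20380 probe sets gave 0 calls (0.0%) at an adjusted p under 0.05. At an unadjusted p under 0.05, 3 of the 10 and 17.7% of all probe sets passed. Of these, 1 was higher (Cd52, against 10.1% of all probe sets) and 2 were lower (Acod1 and Clec4d, against 7.58%). Arrays of the 2 groups overlapped for all 10 genes, while all cKO arrays lay above all wildtype arrays in 6.52% of probe sets and below them in 4.17%. The median difference was −0.31 over the 10 genes and −0.03 over all probe sets, and 3 of 10 were positive (Cd52, Tlr2 and Trem1), against 46.2% of all. The highest upper bound of the 95% intervals was 1.91 (Cd52), and the next was 1.08 (Tlr2). Snf2h cKO replicates 1 and 2 were near-identical, with a log2 SD of 0.217 between them against 0.419 to 0.723 in other pairs, and with both averaged as 1 sample 0 of the 10 passed again. The difference between the 3' and 5' probe sets of Gapdh, a sign of RNA quality, was 0.77 to 0.99 in Snf2h cKO eyes. In Snf2h wildtype eyes it was 4.47 in replicate 3 and 1.09 to 1.46 in the others. Among the 10 genes, wildtype replicate 3 was the highest Snf2h wildtype array for Cd14, Clec4d and Itgb2 only. The part of RNA quality in these values was not tested.

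**Figure D2:**
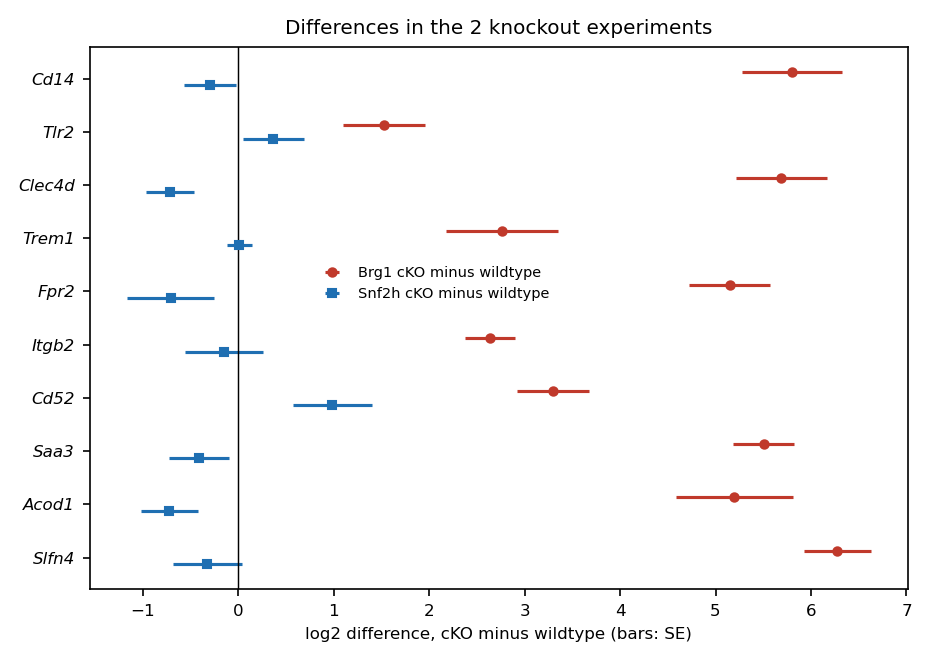
Log2 difference of cKO minus wildtype (horizontal axis, bars give the SE) for each of the 10 genes, in red for Brg1 (n = 3 against 3) and in blue for Snf2h (n = 4 against 4). The Brg1 differences run from 1.53 (Tlr2) to 6.28 (Slfn4) and the Snf2h differences from −0.72 (Acod1) to 0.98 (Cd52).

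The 3 Brg1 cKO arrays differed among themselves, and replicate 1 was at the low end for every gene. Replicate 1 was the lowest of the 3 for 10 of 10 genes, and replicate 2 was the highest for 9 of 10, with replicate 3 highest for Saa3. Over all probe sets replicate 1 was lowest in 28.1% and replicate 2 highest in 33.8%. Among the 113 probe sets with a difference above 2, these shares were 89.4% and 90.3%, so the order was shared with other strongly raised genes. The 10 genes deviated from their knockout mean by a median of −0.75 in replicate 1, 1.0 in replicate 2 and −0.21 in replicate 3.

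Trem1 differed most between these arrays and Itgb2 least. Replicate 2 exceeded replicate 1 by 2.67 for Trem1 (6.38-fold), 2.53 for Acod1 (5.76-fold) and 2.10 for Clec4d (4.27-fold) on the log2 scale. The same difference was 1.96 for Cd14, 1.78 for Fpr2 and 1.70 for Tlr2. It was 1.30 for Cd52, 1.26 for Slfn4, 1.05 for Saa3 and 0.62 for Itgb2 (1.54-fold). The Gapdh 3' minus 5' differences were 0.66, 0.96 and 0.63 in Brg1 cKO replicates 1, 2 and 3 and 0.68 to 0.74 in Brg1 wildtype eyes. Replicate 2, the highest array for most of the 10 genes, thus also stood above the other Brg1 arrays on this measure, and its part in their levels was not tested. Leaving out cKO replicate 2 took the median difference of the 10 genes in Brg1 eyes from 5.17 to 4.56, and leaving out cKO replicate 1 took it to 5.64.

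**Figure D3:**
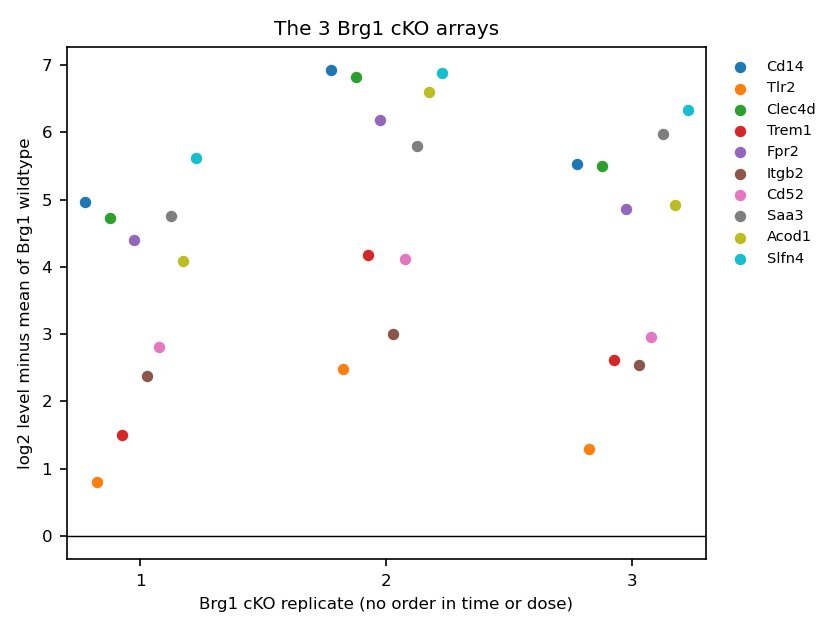
Log2 level minus the mean of Brg1 wildtype eyes (vertical axis) for each of the 10 genes on the 3 Brg1 cKO arrays (horizontal axis), with 1 colour per gene. All points lie above 0, replicate 1 is lowest for all 10 genes and replicate 2 is highest for all but Saa3.

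Between the experiments, the wildtype levels overlapped for 9 of the 10 genes. Cd52 was the exception, with 4.34 ± 0.41 in Brg1 wildtype eyes (SD, n = 3) and 5.98 ± 0.56 in Snf2h wildtype eyes (SD, n = 4). The 2 sets of wildtype arrays did not overlap in 44.5% of all probe sets. The experiments differ in strain, and each knockout was therefore compared only with its own wildtype.

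Other genes of the same pathways were listed by function, without the 10 genes, in 8 lists that held 140 measured genes. In Brg1 cKO eyes 6 of the 140 rose and 0 fell, which was 4.29%, while 0.92% of all 12393 genes were called in either direction, 0.549% rose and 0.371% fell. The median difference was 0.44 over their 217 probe sets and −0.01 over all probe sets. In Snf2h cKO eyes 0 of the 140 were called, as were 0 of all genes, and 35 had a probe set at an unadjusted p under 0.05, while 25.3% of all genes did. The lists were chosen with earlier results of these data known, and each gene is given by its probe set of smallest p. The count of 6 fell to 2, 3 and 4 without Brg1 wildtype replicates 1, 2 and 3 and to 4 without cKO replicate 3, and it was 15 without cKO replicate 1 and 13 without cKO replicate 2. With the filter on dim probe sets 0 were called, with an offset of 16 before the log2 only 1, and in 1 fit over all 14 arrays 27.

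C-type lectin, TREM and formyl peptide receptor genes included 2 of 15 that rose in Brg1 cKO eyes, and all 3 cKO arrays exceeded all wildtype arrays in 13 of their 21 probe sets, against 7.23% of all probe sets. Clec4e, the Mincle receptor that works together with Clec4d, rose to 6.64 ± 0.82 in Brg1 cKO eyes, against 2.23 ± 0.20 in Brg1 wildtype eyes (SD, n = 3 each). The difference was 4.41 ± 0.39 (SE, adjusted p = 0.00593 by limma), while the other Clec4e probe set had 1.56 ± 0.38 and did not pass (adjusted p = 0.212). Clec4n, the lectin Dectin-2, rose by 3.12 ± 0.42 (SE, adjusted p = 0.0288). Clec7a, the beta-glucan receptor Dectin-1, had a difference of 3.44 ± 0.70 that did not pass (adjusted p = 0.128). In Snf2h eyes the microglial receptor gene Trem2 had the smallest p of the list, with 0.61 ± 0.16 (SE, adjusted p = 0.136), and −0.31 by its other probe set. Leaving out Brg1 wildtype replicate 1 left 0 of these calls, and leaving out wildtype replicate 2, wildtype replicate 3 or cKO replicate 3 left a count of 1. It was 3 when either cKO replicate 1 or cKO replicate 2 was dropped.

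Partners of the Toll-like receptor pathway gave 0 calls among 16 genes in Brg1 cKO eyes, with a median difference of 0.36. Tlr1 and Tlr6, which pair with Tlr2, had differences of 1.22 ± 0.29 and 1.50 ± 0.43 (SE, adjusted p = 0.204 and 0.321 by limma). Ly86, a partner of the Toll-like receptor homologue Cd180, had 0.95 ± 0.26 in Brg1 eyes (adjusted p = 0.287) and −0.73 ± 0.18 in Snf2h eyes (adjusted p = 0.125). The lipid scavenger receptor Cd36 had the smallest p of the list in Snf2h eyes, with a difference of −0.76 ± 0.12 (SE, adjusted p = 0.071), while its other 2 probe sets had 0.13 and −0.58. NF-kB subunits and feedback genes also gave 0 calls, of 17, with a median of 0.86 and 11 of 25 probe sets without overlap, against 7.23% of all probe sets above and 6.2% below. The Toll-like receptor list had 1 call without cKO replicate 1. Ptgs2, the inducible cyclooxygenase, had 2.76 ± 0.66 (adjusted p = 0.199), and Tnfaip2 had 1.95 ± 0.46 (adjusted p = 0.194). Their other probe sets had 0.86 for Ptgs2 and 1.43 for Tnfaip2. Nfkbiz, a nuclear inhibitor-family protein of NF-kB, had 1.33 ± 0.31 and 0.90 ± 0.37 by its 2 probe sets in Brg1 eyes (adjusted p = 0.185 and 0.593). In Snf2h eyes the same probe sets had −0.11 and −0.80, and the −0.80 had the smallest p of the list there (adjusted p = 0.1).

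Integrins, selectins and their ligands gave 0 calls of 13 and a median of 0.38 in Brg1 cKO eyes. Itgax, an alpha chain that pairs with Itgb2, had a difference of 1.70 ± 0.28 (SE, adjusted p = 0.0602 by limma). The adhesion adaptor Fermt3 had 1.04 ± 0.20 (adjusted p = 0.109), and 0.74 and 0.36 by its other probe sets. Selplg, the P-selectin ligand, had 1.53 ± 0.38 (adjusted p = 0.224), and the endothelial selectin gene Sele had −0.56 ± 0.18 in Snf2h eyes (adjusted p = 0.186). Genes of leukocytes in general gave 0 calls of 21 with a median of 0.72, and 17 of 30 probe sets did not overlap, against 7.23% of all probe sets above and 6.2% below. The leukocyte phosphatase Ptprc (CD45) had 2.44 ± 0.44 (adjusted p = 0.0889) and the tetraspanin Cd53 had 1.88 ± 0.37 (adjusted p = 0.114). The actin-bundling protein gene Lcp1 had 1.42 ± 0.31 (adjusted p = 0.149), and Hcls1 had 0.97 ± 0.30 in Snf2h eyes (adjusted p = 0.175). Without cKO replicate 1 there were 4 calls among these leukocyte genes and 1 among the integrins, and without cKO replicate 2 the integrins also had 1.

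Acute-phase and interleukin-6 signalling genes included 1 of 28 that rose in Brg1 cKO eyes. Serpina3n, a secreted serine protease inhibitor, rose to 8.51 ± 0.74 in Brg1 cKO eyes, against 3.55 ± 0.42 in Brg1 wildtype eyes (SD, n = 3 each), a difference of 4.96 ± 0.39 (SE, adjusted p = 0.00428 by limma). Osmr, the oncostatin M receptor, and Saa1, a serum amyloid A of the liver, had 2.19 ± 0.35 and 1.43 ± 0.25 (adjusted p = 0.0527 and 0.0713), and 1.18 and 0.93 by their other probe sets. In Snf2h eyes Saa1 had the smallest p of the list, with 0.85 ± 0.24 by its other probe set (SE, adjusted p = 0.154). Their list had a median of 0.21, with 12 of 47 probe sets above and 3 below all wildtype arrays, against 7.23% and 6.2% of all probe sets. Among 17 genes of itaconate and macrophage metabolism only Pfkfb3, an activator of glycolysis, rose, by 1.48 ± 0.21 (SE, adjusted p = 0.035), and by 1 of its 2 probe sets, with 0.42 by the other. The list's median was 0.09. The arginase genes Arg1 and Arg2 had 2.0 ± 0.50 and 1.12 ± 0.33 (adjusted p = 0.231 and 0.344). In Snf2h eyes the hypoxia factor gene Hif1a had 1.11 ± 0.19 (adjusted p = 0.0742), and 0.08, −0.43 and 1.33 by its other probe sets. That list had 0 calls without any 1 of the Brg1 wildtype arrays, cKO replicate 1 or cKO replicate 3, and 2 without cKO replicate 2. The acute-phase list had 4 calls without cKO replicate 1 or 2.

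The Schlafen family and interferon response genes had the highest median of the 8 lists, 1.99 over 15 probe sets, and 2 of 13 genes rose. Mx1, an antiviral GTPase, rose to 7.59 ± 0.50 in Brg1 cKO eyes, against 4.01 ± 0.27 in Brg1 wildtype eyes (SD, n = 3 each; 3.58 ± 0.28 SE, adjusted p = 0.0044 by limma). Slfn1 rose by 3.52 ± 0.37 (SE, adjusted p = 0.0123). Rsad2, the antiviral enzyme viperin, had 3.57 ± 0.66 (adjusted p = 0.0911), and 0.78 and 3.07 by its other probe sets. The count of 2 was 1 without Brg1 wildtype replicate 1 or 2 and 3 without cKO replicate 2. In Snf2h eyes Rsad2 had −1.04 ± 0.37 and Slfn8 had −1.26 ± 0.41 (SE, adjusted p = 0.210 and 0.186). The other Rsad2 probe sets had −0.11 and −0.86 there.

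**Figure D4:**
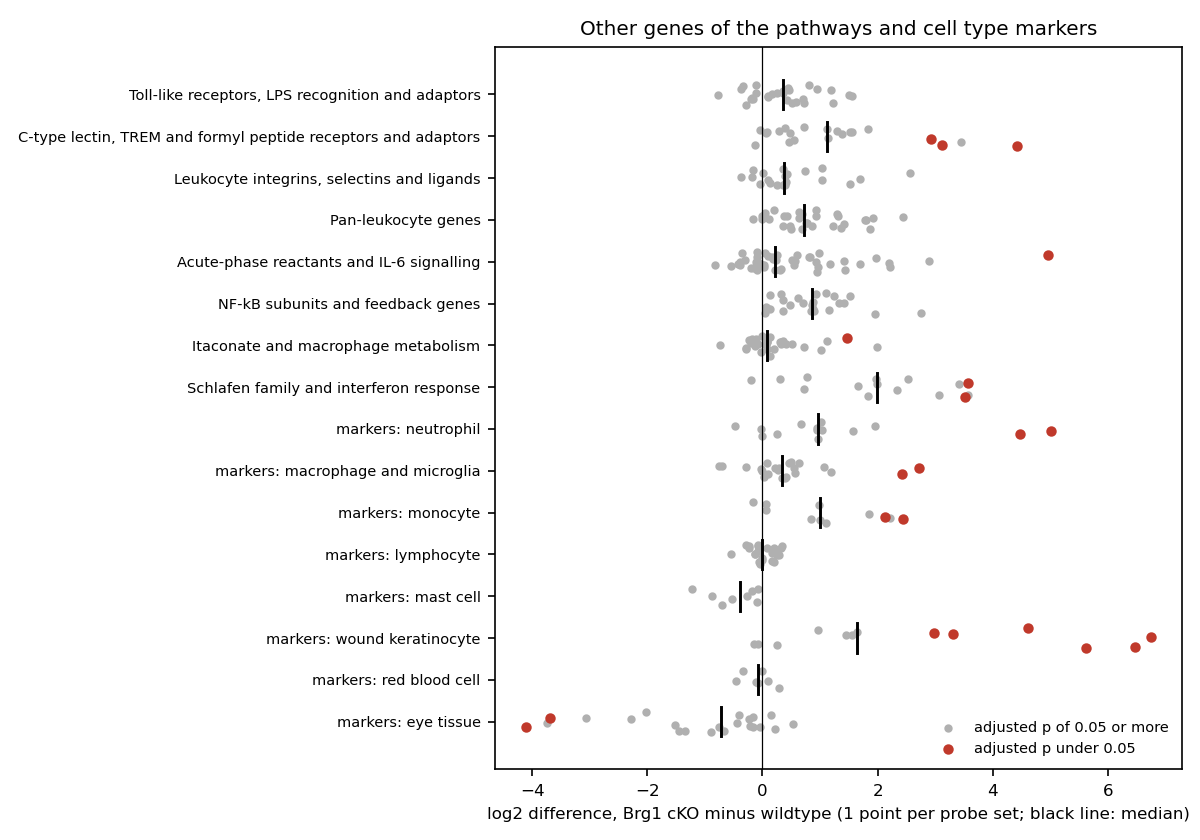
Log2 difference of Brg1 cKO minus Brg1 wildtype (horizontal axis) for each probe set of the pathway lists and cell type marker lists, with 1 point per probe set, a black line at each median, and red for an adjusted p under 0.05. The Schlafen and interferon list has the highest median of the pathway lists (1.99), and the eye tissue markers lie mostly below 0 (median −0.71).

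Some markers of several other cell types moved with these genes in Brg1 eyes, where 0.549% of all genes rose and 0.371% fell. All marker lists, here and below, were also chosen with earlier results of these data known, so their counts are a description. Neutrophil markers included 2 of 13 genes that rose, S100a8 by 5.01 ± 0.54 and S100a9 by 4.48 ± 0.41 (SE, adjusted p = 0.0138 and 0.0073 by limma), while Csf3r, the receptor for granulocyte colony-stimulating factor, had 1.57 ± 0.40 (adjusted p = 0.242). Of the 14 neutrophil probe sets 4 lay above all wildtype arrays, against 7.23% of all probe sets. The mean log2 level of the list was 5.24 to 6.67 in Brg1 cKO eyes and 4.21 to 4.60 in Brg1 wildtype eyes. Its summed intensity was 4293 to 13535 in Brg1 cKO eyes and 412 to 756 in Brg1 wildtype eyes. Most of the cKO sum came from S100a9 and S100a8, at log2 levels of 11.50 to 13.01 and 10.08 to 12.01. The sum thus follows these 2 genes more than the list as a whole. Which cells of the whole eye held their RNA was not measured. Mpo, the myeloperoxidase of neutrophil granules, was at 2.19 ± 0.27 in Brg1 cKO eyes and 2.20 ± 0.20 in Brg1 wildtype eyes (SD, n = 3 each). Both levels lay at the low end of intensity on the arrays, where a difference is hard to see. The Snf2h difference of Mpo was 0.60 ± 0.36 (SE, adjusted p = 0.399 by limma). Macrophage and microglia markers included 2 of 15 genes that rose, Mpeg1 by 2.43 ± 0.27 and Fcgr1 by 2.72 ± 0.33 (adjusted p = 0.0144 and 0.0183). Of their 23 probe sets 7 lay above and 1 below all wildtype arrays, against 7.23% and 6.2% of all probe sets, and the median difference was 0.35. Their list mean overlapped, at 6.72 to 7.59 in Brg1 cKO eyes and 6.30 to 6.81 in Brg1 wildtype eyes. Cd68 had 1.08 ± 0.26 in Brg1 eyes (adjusted p = 0.199), and the complement gene C1qa had 1.41 ± 0.42 in Snf2h eyes (adjusted p = 0.169). Of 6 monocyte markers, Ms4a6d rose by 2.13 ± 0.29 (adjusted p = 0.029) and by 2.44 ± 0.35 in another probe set (adjusted p = 0.0337), while the remaining one had 0.06 ± 0.17 (adjusted p = 0.957). Ccr2 had 0.84 ± 0.16 and Cd44 had 2.21 ± 0.63 (adjusted p = 0.106 and 0.319). Their other probe sets had 1.84 and 0.06 for Ccr2 and −0.17 for Cd44. For the monocyte markers the list mean overlapped too, at 6.01 to 7.68 in Brg1 cKO eyes and 5.42 to 6.03 in Brg1 wildtype eyes. Of the 11 monocyte probe sets 6 lay above all wildtype arrays, against 7.23% of all probe sets. Without Brg1 wildtype replicate 1 these 3 lists had 0 calls. Without wildtype replicate 2 or 3 the neutrophil list had 1, the macrophage list 0 or 1 in turn and the monocyte list 0, and without cKO replicate 3 the macrophage and monocyte lists had 0.

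Of the wound keratinocyte list 6 of 10 genes rose (Il1b, Krt16, Krt6b, Sprr1a, Sprr1b and Sprr2d), against 0.549% of all genes. Il1b among them is a cytokine gene and is not particular to keratinocytes. The list mean was 7.27 to 8.20 in Brg1 cKO eyes and 4.49 to 4.65 in Brg1 wildtype eyes. The count of 6 was 4 without any 1 of the Brg1 wildtype arrays or cKO replicate 3. Krt16 was at 10.89 ± 0.22 in Brg1 cKO eyes and 4.15 ± 0.44 in Brg1 wildtype eyes (SD, n = 3 each). Eye tissue markers had 1 of 12 genes that fell, the corneal keratin Krt12 by 3.70 ± 0.20 (SE), against 0.371% of all genes. The lens fibre gene Mip had −3.07 ± 0.51 and −2.28 ± 0.38 by its 2 probe sets (adjusted p = 0.0602 for each). The eye list mean was 9.36 to 9.98 in Brg1 cKO eyes and 10.80 to 11.08 in Brg1 wildtype eyes. The lens crystallin Cryaa was at 11.80 ± 0.65 in Brg1 cKO eyes and 13.14 ± 0.07 in Brg1 wildtype eyes (SD, n = 3 each). Its difference of −1.34 ± 0.31 (SE) did not pass (adjusted p = 0.192 by limma). Without cKO replicate 2 the eye list had 5 calls. Lymphocyte (10 genes), mast cell (6) and red blood cell (4) markers gave 0 calls, and their list means overlapped between the groups. Of the 3 Brg1 cKO arrays, replicate 2 had the highest mean in 7 of the 8 marker lists, all but lymphocytes, and replicate 1 the lowest in 6 of 8, mast cell and red blood cell markers included, all but lymphocytes and eye tissue. Both held in all 8 pathway lists. The part of these cell types in the rise of the 10 genes was not tested. In Snf2h cKO eyes the 8 marker lists gave 0 calls, with differences of −1.02 ± 0.34 for Krt6a and 0.56 ± 0.15 for the retinal factor gene Otx2 (SE, adjusted p = 0.188 and 0.145). The other Krt6a probe sets had −0.30 and −0.26.

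The transcripts of the deleted genes gave 0 calls in whole eyes. The Smarca4 probe sets had differences of −0.74 ± 0.30 and 0.05 ± 0.22 in Brg1 cKO eyes (SE, adjusted p = 0.579 and 0.972 by limma). The 3 Smarca5 probe sets had differences from −0.50 to 0.31 in Snf2h cKO eyes, with adjusted p from 0.188 to 0.711. Whether these probe sets lie in a deleted exon is not known.

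Genes with the most similar profile were ranked by the root mean square difference, over the 14 arrays, from the median profile of the 10 genes, each profile as log2 values minus their own mean and each gene taken by its closest probe set. Clec4e was closest at 0.268, followed by Ms4a4c (0.368), the neutrophil chemokine Cxcl5 (0.488), the cornified envelope gene Sprr1b (0.489), the macrophage elastase Mmp12 (0.493) and the chemokine Ccl4 (0.505). The other probe sets of Clec4e and Ms4a4c were farther, at 1.37 and 0.63. The 10 genes themselves lay between 0.465 (Cd14) and 1.61 (Cd52), and the median of all probe sets was 2.04. These 6 had Brg1 differences between 3.79 (Mmp12) and 5.62 (Sprr1b) and Snf2h differences between −0.53 (Ccl4) and 0.16 (Ms4a4c). The points share the Brg1 contrast on which the 10 genes were chosen, and the likeness is a description.

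**Figure D5:**
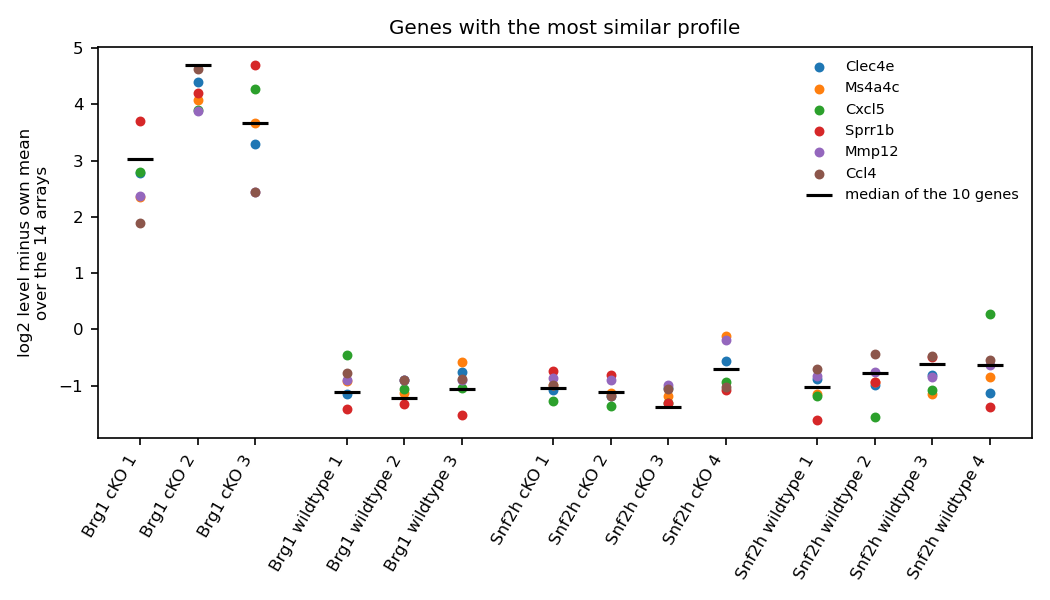
Log2 level minus the gene's own mean over the 14 arrays (vertical axis) for the 6 genes closest to the 10, by array (horizontal axis), with the median of the 10 genes as black dashes. All 6 are highest on the 3 Brg1 cKO arrays, and replicate 2 of these has the highest median of the 10 genes.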

How the data were processed

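Gene expression was measured on 14 single-colour Affymetrix arrays of whole mouse eyes. The deposited table holds a linear intensity for each probe set, made with RMA according to the submitters' processing notes. Whether the 2 experiments were summarised together is not given in the sources used here. Samples were grouped by the genotype in the labels. The log2 of the values was taken with no offset. Of 22690 probe sets, 64 controls, 691 annotated to several genes and 1555 to none were left out, and 20380 were tested. RefSeq gene records changed 0 symbols.

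Each knockout was compared with its own wildtype arrays in a separate fit with limma 3.58.1 (lmFit and eBayes, two-sided) in R 4.3.3. P-values were Benjamini-Hochberg adjusted over all 20380 probe sets, and a probe set was called at an adjusted p under 0.05. A gene of a list was called if any of its probe sets was. Errors of differences are moderated standard errors, and intervals are 95% intervals from the same fits.

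The 10 genes and all gene lists were chosen with earlier results of these data known. Genes named from a list, by their probe set of smallest p, were the 3 with the smallest p in the Brg1 comparison and the 1 with the smallest p in the Snf2h comparison, besides all members of counts of 5 or fewer; the lymphocyte, mast cell and red blood cell lists are given as counts only. The 6 genes of most similar profile were named by the smallest root mean square difference. The wound keratinocyte genes listed after a count of 6 were named after their values were seen.

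The fits were tested on simulated data with known changes. The Brg1 fit called 0% of changes of 0.5 log2 units, 24% of those of 1 and 78% of those of 2. The Snf2h fit called 8%, 50% and 96% of the same sizes. A missing call therefore does not show that a change of about 1 unit or less was absent. Replicate numbers were checked for pairing. Deviations of same-numbered arrays correlated between −0.23 and 0.06 in the Snf2h experiment and between 0.07 and 0.13 in the Brg1 experiment, so the numbers were not taken to pair the samples. Alternatives were quantile normalisation, a filter on dim probe sets (mean log2 level of 6.87 or more), 1 probe set per gene, trended robust eBayes, array weights, 1 fit over all arrays, an offset of 16, averaging of the near-identical arrays, the replicate block and leaving out each array.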

Additional observations from a re-analysis of the deposited data

Results flagged for a closer look

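In 11 of 156 groups of 4 arrays examined, 1 array stood apart from the other 3 by Dixon's test, which by chance flags about 1 in 20 groups. All 11 are in the Snf2h experiment, since the Brg1 groups of 3 were not examined. Among the 10 genes, Tlr2 was at a log2 level of 5.41 in Snf2h cKO replicate 3, against 5.85 to 5.94 in the other cKO arrays. Trem1 was at 2.10 in Snf2h wildtype replicate 3, against 2.37 to 2.41 in the other wildtype arrays.

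Other knockout arrays that stood apart were replicate 3 for Pfkfb3 (6.73, others 7.27 to 7.29) and Ptprc (3.93, others 5.0 to 5.13), and replicate 4 for the red cell gene Slc4a1 (2.79, others 4.70 to 4.88) and Mmp12 (2.72, others 1.92 to 2.06). In cKO replicate 1 the microglial receptor gene Trem2 was at 5.71 (others 5.32 to 5.38). Wildtype arrays that stood apart were replicate 1 for S100a8 (7.63, others 6.25 to 6.34), replicate 2 for Ptgs2 (5.07, others 4.10 to 4.26), replicate 3 for the selectin gene Sele (3.51, others 2.81 to 2.93) and replicate 4 for Saa1 (3.84, others 5.05 to 5.25).

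The 78 probe sets examined were those of the 10 genes, of the list genes with the smallest p and of the 6 genes of similar profile. Most were thus picked on these same comparisons, so their share cannot be weighed against that of all probe sets. For 6 of the 78, all arrays of each knockout lay beyond their own wildtype arrays, in opposite directions in the 2 knockouts. This held for 0.461% of all probe sets, and the difference between the knockouts was not tested. The log2 differences in Snf2h and Brg1 eyes were −1.08 and 1.84 for the chemokine receptor gene Ccr2, −0.53 and 3.84 for Ccl4, −1.02 and 1.64 for Krt6a, −0.73 and 0.95 for Ly86, −0.41 and 1.88 for Cd53, and −0.35 and 3.58 for Mx1. The other 2 Ccr2 probe sets had −0.44 and −0.13 in Snf2h eyes and 0.06 and 0.84 in Brg1 eyes. The other 2 of Krt6a had −0.30 and −0.26 in Snf2h eyes and 1.55 and 1.45 in Brg1 eyes. None of the 10 genes was among the 6.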

How the results depend on the processing

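For the 10 genes in Snf2h eyes the count of calls was 0 under every alternative that tested them, and the filter on dim probe sets kept none of them. Itgb2 turned from −0.15 to 0.020 with quantile normalisation of all arrays and 0.013 with it within each experiment, and ranged from −0.52 to 0.14 over arrays left out (positive without wildtype replicate 1 or 3). Trem1 turned to −0.050 with array weights and ranged from −0.061 to 0.043 (negative without wildtype or cKO replicate 3), and Slfn4 ranged from −0.61 to 0.054 (positive without wildtype replicate 2). In Brg1 eyes the median difference of the 10 was 3.68 with an offset of 16, against 5.17, and 4.56 to 5.64 over arrays left out. Over all probe sets, the 127 Brg1 calls became 15 with the dim filter, 280 in 1 fit over 14 arrays, 18 with the offset, 50 with the replicate block and 25 to 199 over arrays left out. The 6 pathway genes called in Brg1 eyes became 0 with the dim filter, 27 in 1 fit over 14 arrays, 1 with the offset and 2 to 15 over arrays left out, and 4 with the replicate block. The 0 Snf2h calls became 5 with the dim filter, 2 with 1 probe set per gene, 7 with trended robust eBayes, 561 with array weights, 5 in 1 fit over 14 arrays, 3 with the offset and 0 to 184 over arrays left out (184 without wildtype replicate 1 and 77 without wildtype replicate 4), and stayed at 0 with the replicate block. Pathway genes called in Snf2h eyes became 4 with array weights and 0 to 3 over arrays left out. The cause of these moves was not tested. The values carry no background level, so folds of dim probe sets are approximate.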
